A study of Homo sapiens with 4 samples.

Results

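The chromosomal passenger complex and its closest partners were measured as RNA in libraries of MDA-MB-231, an established line from a triple-negative breast cancer, after knockdown of AURKA (2 libraries, titled shA) and in control cells (2 libraries, titled shC). The design text calls the controls mock-transfected and the 2 libraries of a group biological replicates. Both groups were the same line grown in the same L-15 medium, and neither a dose, a time point nor the sequence of the silencing RNA is given in the sources used here. The members are the 9 genes named AURKB, AURKC, INCENP, BIRC5, CDCA8, SGOL1, SGOL2, RCC2 and GSG2 in the tables. They were matched by name, and the set was chosen with earlier results of these data known. They hold 47 of the 81412 transcripts shared by the tables and 9 of 20137 genes, and 8 of them were among the 12136 genes tested. Levels are FPKM, a read count divided by transcript length and library depth, summed over the transcripts of a gene. Totals still differed between libraries, so comparisons of levels between genes and between libraries are approximate.

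The chromosomal passenger complex moves from centromeres to the spindle midzone during mitosis. Its catalytic subunit is Aurora B, and INCENP, survivin (BIRC5) and borealin (CDCA8) anchor and activate the kinase. At centromeres it releases faulty attachments between microtubules and kinetochores, and at the midzone it takes part in cytokinesis. Haspin (GSG2, now HASPIN) places a histone mark that survivin reads, and the shugoshins (SGOL1 and SGOL2, now SGO1 and SGO2) protect centromeric cohesin and help recruit the complex. RCC2, also called TD-60, is a centromere and midzone protein linked to recruitment of the complex, and AURKC is the Aurora kinase of germ cells. AURKA, the gene targeted here, encodes the paralog Aurora A, which acts at spindle poles.

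AURKB had the largest difference between groups among the members, and the other subunits of its complex differed less. AURKB averaged 40.7 ± 6.24 FPKM in the knockdown and 62.5 ± 11.6 FPKM in the controls (SD, n = 2 each), 1.54-fold lower. INCENP averaged 58.9 ± 0.234 FPKM in the knockdown and 55.7 ± 3.82 FPKM in the controls, and BIRC5 46.4 ± 3.53 FPKM in the knockdown and 42.7 ± 2.78 FPKM in the controls (SD, n = 2 each). The targeted gene AURKA had 22.3 and 23.7 FPKM in the knockdown, against 124 and 99.1 FPKM in the controls. Both knockdown libraries were thus below both controls for the gene they are labelled with.

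Summed values were alike between the libraries, estimated depth less so, and the replicate numbers mattered. Summed values were 718790 to 761448 FPKM and 11738 to 12177 genes reached 1 FPKM. Depth was estimated roughly, from the value that a single read gives in low genes, at 17300000 to 27600000 fragments. VIM, CD44, AXL and MSN, markers of this mesenchymal line, stood at 212 FPKM or more in every library, while ESR1, PGR, CDH1 and PTPRC stayed at 0.271 FPKM or less and GATA3 and EPCAM at 2.07 to 3.30 FPKM. The tables of replicate number 1 list 81 transcripts that those of number 2 lack, and the reverse holds for 81 others, so the tables of a number share a transcript set. Each number holds 1 library of each group, and the labels do not say what it marks. Differences are therefore also given within each replicate number, and p-values in limma both without and with that number as a block. Without the block 0 of 12136 genes (0%) passed an adjusted p of 0.05, with 773 genes (6.37%) at an unadjusted p under 0.05. With the block the count was 417 genes (3.44%), 231 lower (1.9%) and 186 higher (1.53%).

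AURKB and AURKA are paralogs, and the stretches of coding sequence they share are shown first because the AURKB result stands beside a knockdown of AURKA. The longest run of bases common to the AURKA transcript ENST00000312783 and any listed AURKB transcript was 26 bases, found in ENST00000585124 and lying in the part that encodes the kinase domain. The longest run shared with AURKC was 15 bases, and those shared with the 7 other members were 11 to 13 bases. A second shared stretch holds the 7-base word GAGACCT, which was taken from an earlier account of these data and is printed in capitals with 10 bases on either side. In both genes the word lies in the coding sequence and starts on the first base of a codon, at base 1006 of the AURKA and base 838 of the AURKB coding sequence. The AURKA window is at chr20:56370492-56370518 and the AURKB window at chr17:8205223-8205249, both on the minus strand of GRCh38. These 3 sequences, from GENCODE 29 transcripts, read 5′ to 3′ as follows.
AURKA and AURKB, longest shared run: tgtggcaccctggactacctgccccc
AURKA, word and flanks: cacataccaaGAGACCTacaaaagaat
AURKB, word and flanks: atcacacaacGAGACCTatcgccgcat

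The AURKA and AURKB windows were identical at 16 of 27 positions, and the shared run over the word was 8 bases long. The word stood in the coding sequence of 4 of the 9 AURKB transcripts that could be searched, and in the 3′ UTR of 0 of those 9. The 4 were AURKB-201, AURKB-202, AURKB-204 and AURKB-214. Knockdown minus control, they differed by 0.01, -0.71, -0.75 and -0.46 on the log2(FPKM + 1) scale. The other tested AURKB transcripts, AURKB-208, AURKB-211 and AURKB-213, lacked the word and differed by -0.21, -0.71 and -0.54. The word stood nowhere in the searched transcripts of the 8 other members. For SGOL1 only 11 of 14 transcripts could be searched, and its leading one, ENST00000412868, was not among them. Of 11785 tested genes with a coding transcript, 28.7% held it somewhere in such a transcript and 16.6% in the coding sequence.

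AURKB, the catalytic subunit (ENSG00000178999, chromosome 17, 8108055 to 8113916 in GRCh37, the build of all gene loci given here), had 45.1 and 36.3 FPKM in knockdown replicates 1 and 2, against 70.7 and 54.3 FPKM in control replicates 1 and 2. Both knockdown libraries lay below both controls, and within each group replicate 1 was the higher. The difference was -0.60 on the log2(FPKM + 1) scale, with values of -0.64 within replicate number 1 and -0.57 within replicate number 2. Its standard error was 0.18 in limma without the block and 0.081 with it. Standard errors of other genes in this text are from the fit without the block. In limma the adjusted p was 0.628 without the block and 0.0176 with it, where AURKB ranked 105 of 12136 genes by p. AURKB was thus 1 of 8 tested members called lower with the block, against 1.9% of all tested genes, and 0 of 8 were called higher, against 1.53%. With the block but no filter on low values the adjusted p was 0.139, so that call depends on the filter. Its values rest on roughly 1100 to 1400 fragments per library, a counting error of about 3.1% or less. In bulk RNA, fewer cells expressing AURKB and less AURKB RNA per cell cannot be told apart.

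**Figure D1:**
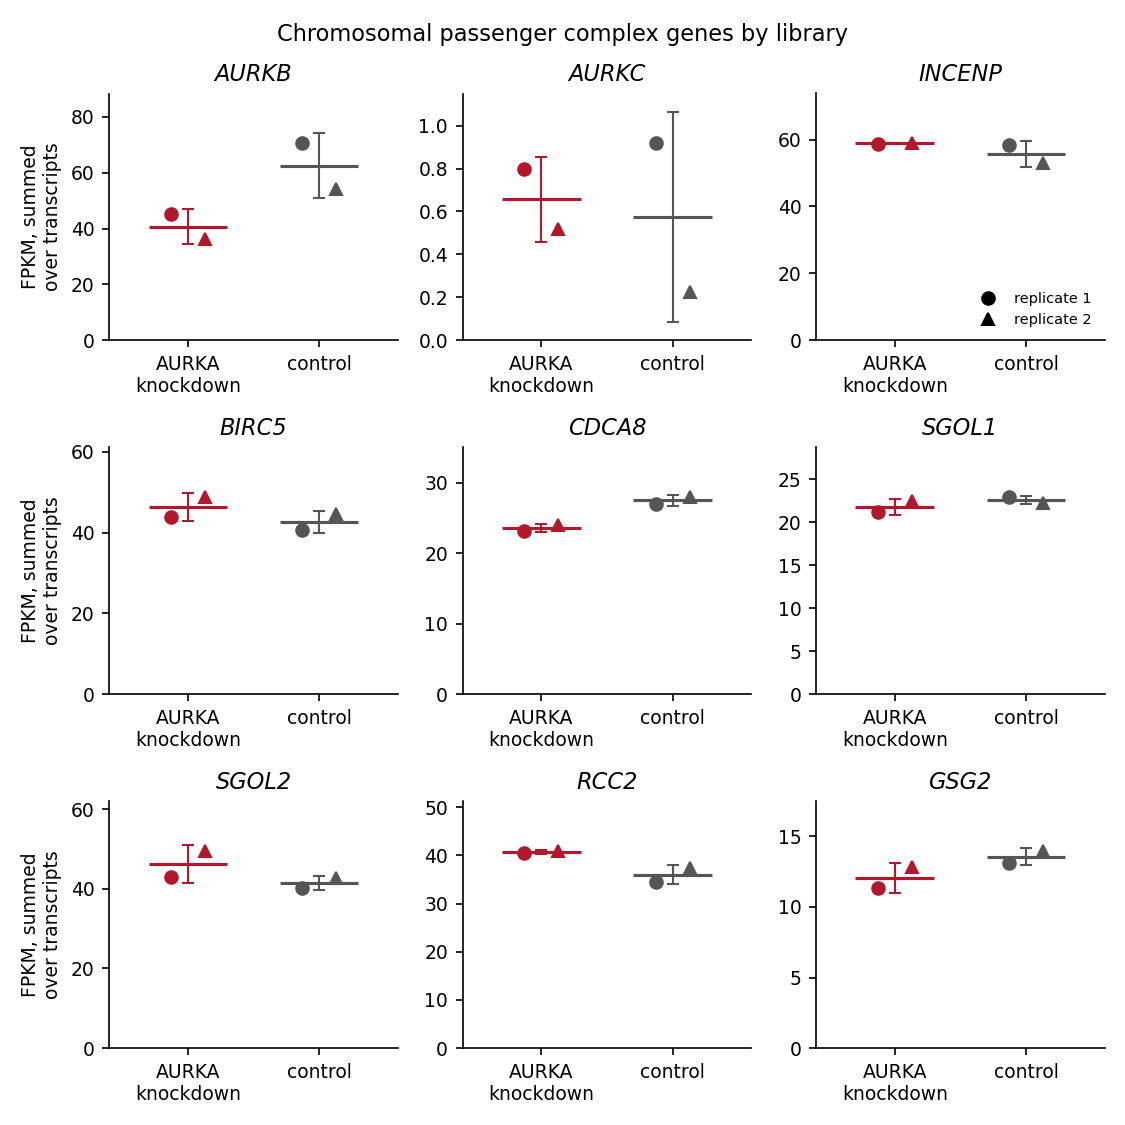
FPKM summed over transcripts (vertical axes, each from 0) for the 9 member genes in the AURKA knockdown (red, left) and control (grey, right), with circles for replicate 1, triangles for replicate 2, lines for the mean and bars for the SD (n = 2). AURKB lies at 45.1 and 36.3 FPKM in the knockdown and at 70.7 and 54.3 FPKM in the controls, while the groups of BIRC5, SGOL1 and AURKC overlap.

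INCENP, the scaffold that binds and activates Aurora B (ENSG00000149503, chromosome 11, 61891444 to 61920453), had 58.7 and 59.0 FPKM in the knockdown and 58.4 and 53.0 FPKM in the controls. The knockdown values lay above both controls, by 0.01 on the log2 scale within replicate number 1 and by 0.15 within replicate number 2. BIRC5, or survivin, which reads the haspin mark (ENSG00000089685, chromosome 17, 76210266 to 76221717), had 43.9 and 48.9 FPKM in the knockdown and 40.7 and 44.6 FPKM in the controls. Its groups overlapped, although the knockdown was higher within each replicate number, by 0.11 and 0.13 on the log2 scale. Neither gene passed in limma, with adjusted p of 0.948 for INCENP and 0.922 for BIRC5 without the block and of 0.618 and 0.435 with it. BIRC5 shares its locus in the tables with AC087645.1, which had 4.88 and 7.22 FPKM in the knockdown and 5.35 and 6.94 FPKM in the controls. Reads of overlapping genes cannot be assigned by strand here.

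CDCA8, or borealin, which binds INCENP and survivin (ENSG00000134690, chromosome 1, 38158089 to 38175391), had 23.2 and 24.0 FPKM in the knockdown and 27.0 and 28.0 FPKM in the controls. All knockdown values lay below all controls. Its log2 difference was -0.21 ± 0.12 (standard error), with -0.21 within replicate number 1 and -0.22 within replicate number 2. CDCA8 was 1.17-fold lower and did not pass in limma, with adjusted p of 0.848 without and 0.224 with the block.

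The balance of the 4 subunits was compared within each library. AURKB made up 26.4% and 21.6% of their summed FPKM in the knockdown, against 35.9% and 30.2% in the controls. The share averaged 24.0% ± 3.41 in the knockdown and 33.0% ± 4.08 in the controls (SD, n = 2 each), and both knockdown libraries lay below both controls. The exact permutation test gave p = 0.333 (two-sided), the smallest p that 2 libraries against 2 allow. The other 3 subunits together had 125.8 and 131.9 FPKM in the knockdown and 126.1 and 125.6 FPKM in the controls. AURKB stood at 0.768 and 0.614 times the INCENP level in the knockdown and at 1.21 and 1.02 times in the controls. Relative to BIRC5 it stood at 1.03 and 0.742 times in the knockdown and at 1.74 and 1.22 times in the controls. As summed, AURKB RNA was thus above INCENP RNA in both controls and below it in both knockdown libraries. INCENP-206, a short transcript of 570 bases, made up 35.9% and 44.9% of INCENP in the knockdown and 28.0% and 39.2% in the controls. Without that transcript AURKB would lie above INCENP in every library. For AURKA against AURKB the ratio of levels was 0.494 and 0.652 in the knockdown and 1.75 and 1.83 in the controls.

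**Figure D2:**
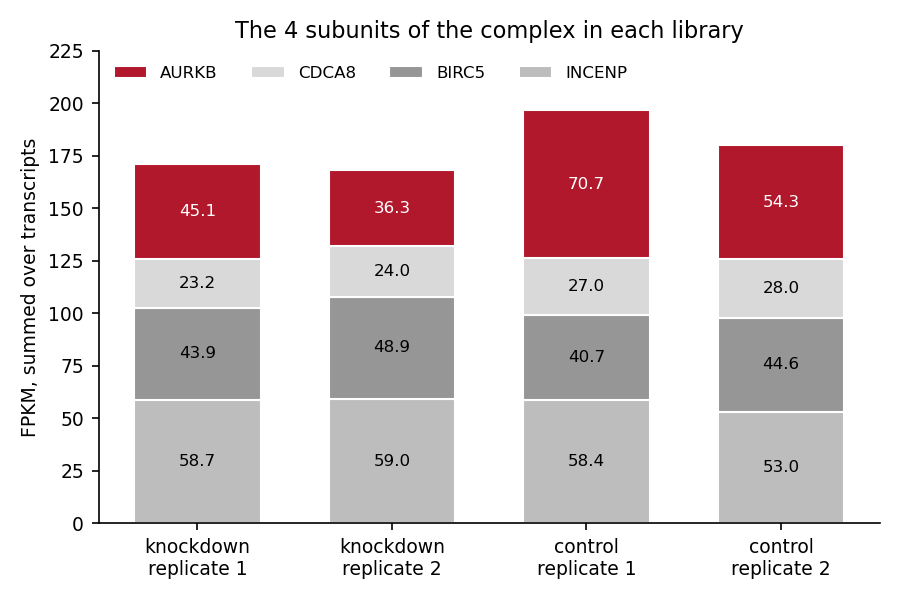
FPKM summed over transcripts (vertical axis) of AURKB (red), CDCA8, BIRC5 and INCENP (greys), stacked for each of the 2 knockdown libraries (left) and 2 control libraries (right), with each value printed in its block. The grey blocks together reach 125.6 to 131.9 FPKM in all 4 libraries, and the red block is smaller in both knockdown libraries.

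The centromere partners of the complex differed between groups by 1.13-fold or less. SGOL1, which protects cohesin at mitotic centromeres (ENSG00000129810, chromosome 3, 20202084 to 20227919), had 21.2 and 22.4 FPKM in the knockdown and 23.0 and 22.3 FPKM in the controls, and the groups overlapped. SGOL2, its paralog (ENSG00000163535, chromosome 2, 201353674 to 201448505), had 42.8 and 49.5 FPKM in the knockdown and 40.3 and 42.8 FPKM in the controls, so that knockdown replicate 1 and control replicate 2 were almost level. SGOL2 shares its locus with KCTD18, at 6.20 and 5.18 FPKM in the knockdown and 5.44 and 6.18 FPKM in the controls. Adjusted p in limma was 0.977 for SGOL1 and 0.909 for SGOL2 without the block, and 0.789 and 0.355 with it.

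GSG2, the haspin kinase (ENSG00000177602, chromosome 17, 3617921 to 3704537), had 11.3 and 12.8 FPKM in the knockdown and 13.1 and 13.97 FPKM in the controls. Both knockdown values lay below both controls, with a log2 difference of -0.16 ± 0.15 (standard error). GSG2 has 1 transcript in the tables and shares its locus with ITGAE, an integrin gene at 2.17 and 2.15 FPKM in the knockdown and 2.02 and 2.07 FPKM in the controls. RCC2 (ENSG00000179051, chromosome 1, 17733255 to 17766220) had 40.4 and 40.9 FPKM in the knockdown and 34.6 and 37.4 FPKM in the controls, higher in both knockdown libraries, with a log2 difference of 0.17 ± 0.12 (standard error). Neither passed in limma, with adjusted p of 0.913 for GSG2 and 0.862 for RCC2 without the block and of 0.423 and 0.281 with it.

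AURKC, the germ cell paralog (ENSG00000105146, chromosome 19, 57742376 to 57746916), was near the lower end of the tables. It had 0.796 and 0.516 FPKM in the knockdown and 0.920 and 0.226 FPKM in the controls, and the groups overlapped. It did not reach 1 FPKM in 2 libraries and was not tested. Its value rests on roughly 5 to 18 fragments per library, and each of its 6 transcripts was listed at 0 in at least 1 library.

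Of the 8 tested members, 3 lay below both controls in both knockdown libraries (AURKB, CDCA8 and GSG2) and 3 lay above (INCENP, SGOL2 and RCC2). Among all tested genes such a lack of overlap was found for 16.6% below and 19.4% above. The median log2 difference of the 8 was 0.01, and that of all tested genes was 0.01 as well. At an unadjusted p under 0.05 with the block stood 2 of the 8, AURKB and CDCA8, against 22.1% of all tested genes.

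**Figure D3:**
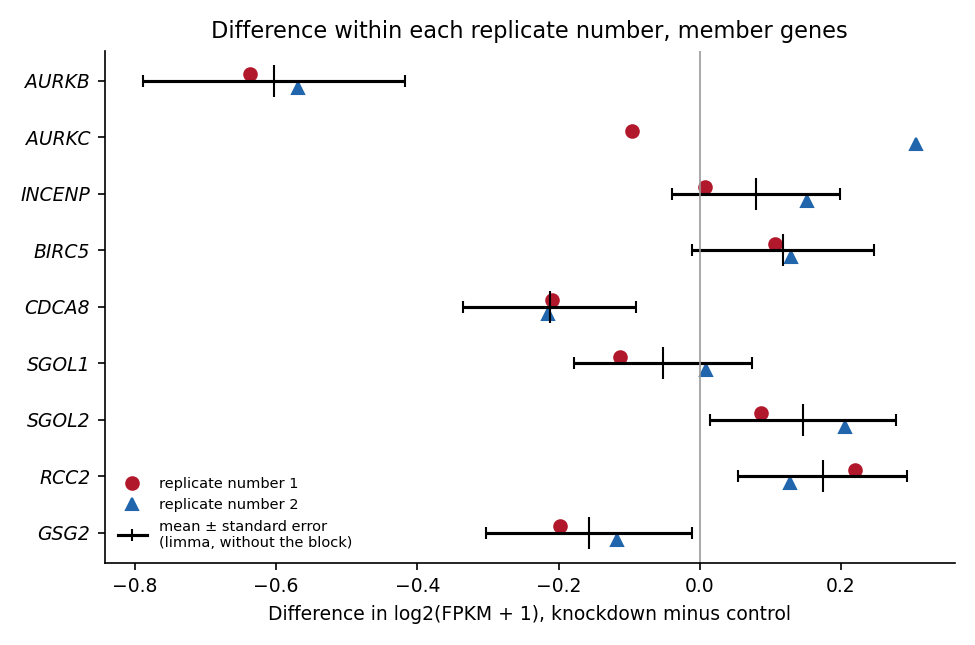
Difference in log2(FPKM + 1), knockdown minus control (horizontal axis), for each member gene within replicate number 1 (red circles) and replicate number 2 (blue triangles), with the mean and its standard error from limma without the block (black; not fitted for AURKC). AURKB lies at -0.64 and -0.57 in the 2 replicate numbers, and the other tested members lie between -0.22 and 0.22.

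The order of the members by level differed between groups in the place of AURKB. In the knockdown the order by mean was INCENP, BIRC5, SGOL2, AURKB, RCC2, CDCA8, SGOL1, GSG2 and AURKC, where BIRC5, SGOL2 and AURKB each overlapped with the next. In the controls the order was AURKB, INCENP, BIRC5, SGOL2, RCC2, CDCA8, SGOL1, GSG2 and AURKC. There the range of AURKB overlapped with that of INCENP, and that of BIRC5 with that of SGOL2, while all other neighbours were apart in both libraries. The place of INCENP in each order rests in part on its short transcript INCENP-206. The level of SGOL2 was 2.02 and 2.21 times that of SGOL1 in the knockdown and 1.75 and 1.92 times in the controls.

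At the level of transcripts, 29 of the 47 reached 1 FPKM in at least 2 libraries and were tested among 31416 transcripts. Of these 29, 0 passed in limma without the block and 0 with it, as did 0% of all transcripts in each fit. At an unadjusted p under 0.05 stood 2 of the 29 without the block and 6 with it, against 5% and 11.5% of all transcripts. Both of the 2 and most of the 6 were AURKB transcripts, which divide the reads of 1 gene and are not independent. The groups did not overlap for 13 of the 29, 9 below both controls and 4 above, against 32.2% of all transcripts, 15% below and 17.2% above. Of the 9 below, 5 were AURKB transcripts. Transcript values within a gene are estimates that divide shared reads, so they are less certain than the sums.

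AURKB has 10 transcripts in the tables, of which 7 were tested. In both knockdown libraries 5 of the 7 lay below both controls, against 15% of all transcripts. The 7 divide the reads of 1 gene, so they are not independent of each other. The leading one, AURKB-214 (ENST00000585124, 1227 bases), had 21.9 and 15.8 FPKM in the knockdown and 30.8 and 21.9 FPKM in the controls, lower within each replicate number by 0.47 and 0.45 on the log2 scale. Its groups overlapped narrowly, with knockdown replicate 1 at 21.94 FPKM and control replicate 2 at 21.92 FPKM. AURKB-202 (ENST00000534871, 1167 bases) had 10.1 and 10.9 FPKM in the knockdown and 19.3 and 16.3 FPKM in the controls. Its groups did not overlap, and its adjusted p in limma was 0.356 with the block. AURKB-204 (ENST00000578549) had 4.60 and 2.75 FPKM in the knockdown and 8.10 and 5.56 FPKM in the controls. AURKB-213 (ENST00000584972) had 3.95 and 3.63 FPKM in the knockdown and 6.12 and 5.77 FPKM in the controls. The share of AURKB-214 in the gene was 48.6% and 43.5% in the knockdown and 43.6% and 40.4% in the controls. AURKB-201, at 1.74 and 0.556 FPKM in the knockdown and 1.92 and 0.436 FPKM in the controls, was high in both replicate 1 libraries and low in both replicate 2 libraries, with a log2 difference of 0.01.

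**Figure D4:**
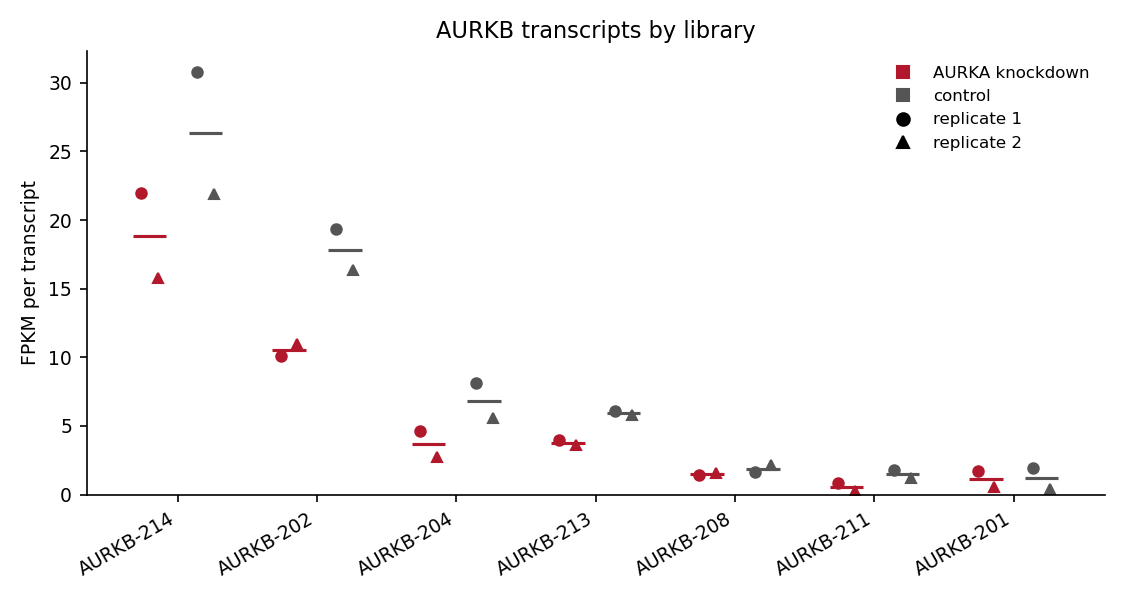
FPKM (vertical axis) of the 7 AURKB transcripts that reached 1 FPKM in at least 2 libraries, in the AURKA knockdown (red, left) and control (grey, right), with circles for replicate 1, triangles for replicate 2 and lines for the mean of each group. AURKB-214, the highest, lies at 21.9 and 15.8 FPKM in the knockdown and 30.8 and 21.9 FPKM in the controls.

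Transcripts of INCENP differed in opposite directions. INCENP-202 (ENST00000394818, 3964 bases) had 18.4 and 15.3 FPKM in the knockdown and 22.8 and 19.1 FPKM in the controls, below the controls by 0.30 within each replicate number. INCENP-206 (ENST00000533896), a short annotated transcript of 570 bases, had 21.1 and 26.5 FPKM in the knockdown and 16.4 and 20.8 FPKM in the controls. Their adjusted p in limma with the block was 0.414 and 0.389. The leading BIRC5 transcript, ENST00000350051, made up 65.4% and 62.0% of the gene in the knockdown and 67.2% and 63.4% in the controls.

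SGOL1 has 14 transcripts in the tables, of which 3 were listed at 0 in all libraries and 8 in some. ENST00000412868, its leading one, had 9.72 and 11.3 FPKM in the knockdown and 8.80 and 9.39 FPKM in the controls. Several minor ones differed between the libraries of each group. ENST00000263753 had 1.81 and 0.656 FPKM in the knockdown and 0 and 2.64 FPKM in the controls, whereas ENST00000421451 had 0.112 and 1.73 FPKM in the knockdown and 1.58 and 0.137 FPKM in the controls. Knockdown replicate 1 thus resembled control replicate 2 in these transcripts, and the summed gene differed by 1.04-fold. For CDCA8, ENST00000327331 had 10.5 and 10.6 FPKM in the knockdown and 14.3 and 11.8 FPKM in the controls, and the other CDCA8 transcript overlapped between groups.

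Genes that act with the complex were taken from 9 further lists, chosen with earlier results of these data known. They hold 111 distinct genes, of which 107 were tested. With the block 3 were called lower (2.8%, against 1.9% of all tested genes) and 1 higher, and 0 were called without the block. The genes called lower were KIF2C, PPP1CC and SMC1A, and the gene called higher was STAG1. With the block and no filter on low values, the adjusted p in limma was 0.101 for KIF2C, 0.175 for PPP1CC, 0.179 for SMC1A and 0.179 for STAG1, so these 4 calls depend on the filter. List medians are given below, and those of 8 of the 10 lists changed sign when 1 library was left out.

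KIF2C, the microtubule depolymerase MCAK and a substrate of Aurora B at centromeres, had 30.1 and 28.99 FPKM in the knockdown, against 58.0 and 57.6 FPKM in the controls. It fell by 0.94 on the log2 scale (standard error 0.12, adjusted p in limma 0.297 without and 0.00468 with the block). The other 12 genes of the kinetochore list, which include NDC80, DSN1 and CENPA, did not pass, and the list median was 0.04. STMN1, a microtubule destabiliser, was next in size at 265 and 314 FPKM in the knockdown and 314 and 403 FPKM in the controls.

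PPP1CC, a catalytic subunit of protein phosphatase 1, which opposes Aurora B, had 109.6 and 117 FPKM in the knockdown and 155 and 156 FPKM in the controls. Its log2 difference was -0.46 ± 0.11 (standard error), with adjusted p in limma of 0.537 without and 0.0325 with the block. The other 17 genes listed with the centromere kinases and phosphatases did not pass. Their list had a median of -0.06, with 14 of 18 means lower in the knockdown, against 47.7% of all tested genes. BUB1, TTK, PLK1, CDK1 and CCNB1 are also in the list of G2 and mitosis genes below, so the 2 lists are not separate. Next in size to PPP1CC was PPP2R5B at 3.38 and 2.84 FPKM in the knockdown and 5.10 and 3.20 FPKM in the controls.

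In the cohesin list, SMC1A and STAG1, both subunits of the ring that shugoshins protect, went opposite ways. SMC1A had 13.6 and 22.7 FPKM in the knockdown and 21.5 and 45.0 FPKM in the controls, lower within each replicate number although the groups overlapped (adjusted p in limma 0.822 without and 0.0195 with the block). Its log2 difference of -0.79 was -0.27 without control replicate 2, -1.31 without control replicate 1 and -0.44 without knockdown replicate 1. STAG1 had 20.2 and 24.2 FPKM in the knockdown and 12.6 and 16.5 FPKM in the controls, with a log2 difference of 0.58 ± 0.18 (standard error) and adjusted p in limma of 0.633 without and 0.032 with the block. The other 15 cohesin genes did not pass, and the list median was -0.01.

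The 4 genes called lower in these lists and among the members, AURKB, KIF2C, PPP1CC and SMC1A, all held the word GAGACCT in their coding sequence (KIF2C and SMC1A also in the 3′ UTR), and STAG1 did not. Of 115 searched genes of the 10 lists, 18 held it in the coding sequence, and 4 of these 18 were called lower. The median log2 difference of the 18 was -0.0044, against -0.0079 for the list genes without it. Among all genes searched, 62 of 229 called lower and 23 of 180 called higher held it in the coding sequence, against 16.6% of genes overall. Counted anywhere in a coding transcript, it was held by 141 of 229 called lower and 44 of 180 called higher, against 28.7% overall. Median log2 differences over all genes searched were -0.025 with the word in the coding sequence and 0.017 without it there. For the word anywhere in a coding transcript they were -0.034 and 0.028, and for the 3′ UTR -0.065 and 0.020. Since the word was taken from an account of these same data, these counts and medians are no independent evidence. The part of the word in the AURKB result was not tested.

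In limma 0 genes of the remaining lists passed, with or without the block. With the block and median-of-ratios scaling together, ULK3 (adjusted p 0.0354), BIRC3 (0.00705), CBX5 (0.049) and NFYA (0.0218) passed. Midzone and cytokinesis genes had a median of 0.05, with ULK3, a kinase of the abscission checkpoint, at 8.66 and 8.04 FPKM in the knockdown and 13.5 and 9.84 FPKM in the controls. VPS4B, which acts in abscission, had 35.6 and 48.3 FPKM in the knockdown and 30.9 and 43.7 FPKM in the controls. Genes of turnover and export of the complex had a median of 0.02, with UBE2C at 207 and 200 FPKM in the knockdown and 248 and 221 FPKM in the controls. CUL3, the cullin that removes Aurora B from chromosomes, had 52.8 and 60.4 FPKM in the knockdown and 61.5 and 65.2 FPKM in the controls. In the inhibitor of apoptosis family, to which survivin belongs, BIRC3 had 4.04 and 2.76 FPKM in the knockdown and 13.3 and 3.78 FPKM in the controls, and NAIP 3.97 and 4.20 FPKM in the knockdown and 3.58 and 2.87 FPKM in the controls. For BIRC3, control replicate 1 stood apart from the other 3 libraries, and the log2 difference of -0.93 was -0.14 without it. The list median was -0.11. CBX5, a heterochromatin protein of the HP1 family, had 54.3 and 71.8 FPKM in the knockdown and 39.2 and 61.4 FPKM in the controls, and SUV39H2, a histone methyltransferase, had 25.0 and 35.5 FPKM in the knockdown and 21.8 and 31.8 FPKM in the controls. The median of that list was 0.03.

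Each of the 17 listed genes that peak with AURKB in G2 and mitosis differed by less than AURKB did. KIF2C, at -0.94, was placed in the kinetochore list. Of the 17 genes, 14 had a lower mean in the knockdown, against 47.7% of all tested genes. The list median was -0.08, with -0.17 within replicate number 1 and -0.0048 within replicate number 2. Both knockdown libraries lay below both controls for 6 of the 17 and above both for 0, against 16.6% and 19.4% of all tested genes. CDK1 had 91.8 and 103 FPKM in the knockdown and 121 and 116 FPKM in the controls, and KIF11, the spindle motor, 36.4 and 44.8 FPKM in the knockdown and 44.3 and 52.8 FPKM in the controls. These 2 were the largest differences in the list, at -0.28 and -0.26 on the log2 scale, smaller than that of AURKB. That of KIF11 was -0.11 without knockdown replicate 1 and -0.40 without knockdown replicate 2. Whether the share of mitotic cells had a part in the AURKB result was not tested. Regulators of such genes, among them FOXM1, MYBL2 and the LIN proteins, had a median of 0.04, with NFYA at 16.7 and 14.2 FPKM in the knockdown and 25.9 and 17.1 FPKM in the controls and LIN52 at 3.86 and 3.57 FPKM in the knockdown and 5.95 and 4.52 FPKM in the controls.

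**Figure D5:**
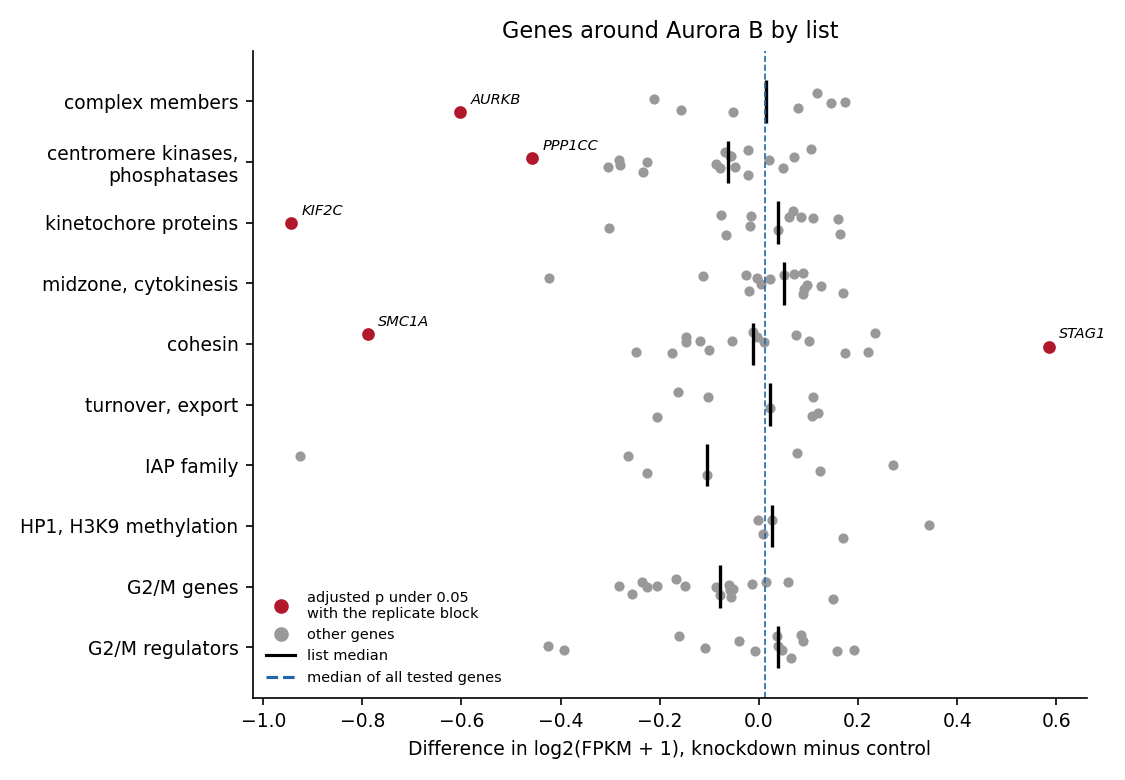
Difference in log2(FPKM + 1), knockdown minus control (horizontal axis), for every tested gene of the member list and the 9 further lists (rows), with genes at an adjusted p under 0.05 in limma with the block in red, other genes in grey, list medians as black lines and the median of all tested genes as a dashed line. AURKB, PPP1CC, KIF2C and SMC1A lie at -0.46 or below and STAG1 at 0.58, and the list medians lie between -0.11 and 0.05.

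The promoters of 7 members were at hand, and 3 of the complex subunits are printed because genes of G2 and mitosis often carry a cell-cycle element (CHR, searched as TTTGAA and as TTTAAA) and CCAAT boxes near their start. The RefSeq windows of 300 bases span a start site on GRCh38.p14. Capitals mark a match to either CHR form or to CCAAT, on either strand. The windows are chr17:8210176-8210475 on the minus strand for AURKB, chr11:62123761-62124060 on the plus strand for INCENP and chr1:37692266-37692565 on the plus strand for CDCA8.
AURKB: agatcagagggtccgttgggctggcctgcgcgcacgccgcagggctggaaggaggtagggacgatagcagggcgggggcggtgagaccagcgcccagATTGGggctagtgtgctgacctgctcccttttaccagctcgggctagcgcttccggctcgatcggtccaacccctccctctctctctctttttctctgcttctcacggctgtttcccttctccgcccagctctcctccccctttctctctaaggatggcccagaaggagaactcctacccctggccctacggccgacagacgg
INCENP: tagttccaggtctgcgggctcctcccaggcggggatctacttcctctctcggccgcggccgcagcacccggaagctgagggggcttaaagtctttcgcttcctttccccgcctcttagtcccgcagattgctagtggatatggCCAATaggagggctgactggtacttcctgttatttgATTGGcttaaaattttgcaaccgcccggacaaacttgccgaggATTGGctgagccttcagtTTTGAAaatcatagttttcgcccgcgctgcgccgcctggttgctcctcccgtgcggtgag
CDCA8: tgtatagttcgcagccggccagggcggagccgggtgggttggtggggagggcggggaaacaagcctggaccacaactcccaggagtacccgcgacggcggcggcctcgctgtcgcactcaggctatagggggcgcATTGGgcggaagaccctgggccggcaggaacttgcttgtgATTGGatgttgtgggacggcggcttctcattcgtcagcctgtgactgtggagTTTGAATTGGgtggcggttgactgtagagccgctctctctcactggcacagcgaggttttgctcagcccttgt

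INCENP and CDCA8 held TTTGAA shortly before the start site, SGOL2 held TTTAAA, and the printed AURKB window held neither. In CDCA8 the TTTGAA and the last CCAAT overlap by a base. Of all 35116 windows of this length, 24.0% held TTTGAA or TTTAAA and 34.6% held CCAAT, and among the 7 members 3 held the first and 6 the second. BIRC5 and GSG2 had no entry. A window without a match says only that these letters are not in it.

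Across the 4 libraries, the genes whose pattern lay nearest to that of AURKB were TMEM132A, SLC48A1, DCAF8, CCNB1IP1 and CEP57L1, by Euclidean distance of log2(FPKM + 1) centred on each gene's mean. They were nearest among 7578 genes with a mean of at least 10 FPKM, at distances of 0.06 to 0.09. DCAF8, for example, had 37.9 and 30.8 FPKM in the knockdown and 61.4 and 48.7 FPKM in the controls. Their adjusted p in limma was 0.0134 to 0.0373 with the block, and 0.539 to 0.674 in the fit that has none. These genes were picked for values like those of AURKB in the same libraries. Such p-values follow from that choice and are no further evidence. The member nearest to AURKB in pattern was CDCA8, in place 1341, and INCENP was in place 3674. With 4 libraries this is a description of values only.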

How the data were processed

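RNA from 4 libraries of MDA-MB-231 cells was sequenced after NEBNext Ultra preparation, per the labels' protocols. The authors deposited a value per transcript with no unit named. The deposited values were read as FPKM, because they are not whole and sum to different totals. Per the submitters' processing notes, bcl2fastq 2.19 and HTSeq 0.8.0 were used with hg38, and the sources used here do not name the program behind the FPKM. The loci in the files are GRCh37, as a locus on chromosome 4 ends at 191013719, and GENCODE 29 and RefSeq sequences are on GRCh38.

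Transcripts present in all 4 tables (81412) were summed by gene ID. Genes reaching 1 FPKM in 2 or more libraries were fitted with limma-trend (limma 3.58.1, R 4.3.3) on log2(FPKM + 1), two-sided, with Benjamini-Hochberg adjustment over all 12136 genes and a threshold of 0.05. This scale understates the change of low genes. The fit was checked on simulated data. No read totals are in the files, and a count test was not used. The planned comparison has no replicate block. What the replicate number stands for is unlabelled, but each number has its own transcript set in the tables, so the same fit with the number as a block is given beside it. Replicate 1 minus replicate 2 correlated at r = 0.645 between knockdown and control across 12136 genes, which are not independent replicates. P-values without the block measure the spread between these samples, which may be partly technical.

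Alternatives were another pseudocount, other filters, median-of-ratios scaling, the block and leaving out each library. Named genes were all members, list genes called in either fit, the 2 largest differences of each list, and the 5 nearest to AURKB. The members and lists were chosen with earlier results of these data known.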

Additional observations from a re-analysis of the deposited data

How the results depend on the processing

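AURKB was lower in the knockdown under each alternative tried, at -0.79 to -0.41 on the log2 scale when each library was left out in turn (adjusted p in limma 0.198 to 1.0), and the difference in its share of the 4 subunits was -11.96 to -6.18 percentage points. The calls depend on the replicate block, which pairs the libraries by their number. Without it 0 members and 0 list genes were called in any alternative. With the replicate block 1 member was called lower, AURKB, and also with median-of-ratios scaling (adjusted p 0.000643), with a pseudocount of 0.1 (0.0275) and with a filter at 5 FPKM (0.0154). With the block and no filter 0 were called, as for all genes. Of the listed genes 3 were called lower and 1 higher with the block, as with the smaller pseudocount and the 5 FPKM filter, and 6 and 2 with median-of-ratios scaling, which added ULK3, BIRC3 and NFYA lower and CBX5 higher. Over all genes, 231 were called lower and 186 higher with the block, 666 and 503 with scaling added, and 165 and 122 with the smaller pseudocount. With 2 libraries a group the fits have few degrees of freedom. Leaving out a library together with the block leaves no residual degrees of freedom and was not run.

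Several differences changed sign with the library left out, and the cause was not tested. Among list medians the ranges were -0.16 to 0.11 for kinetochore genes, -0.15 to 0.14 for regulators of G2 and mitosis and -0.072 to 0.11 for HP1 genes. For genes and transcripts not called they included differences as large as 0.61 (ENST00000590449 BIRC5) and 0.47 (ENST00000417364 SGOL1). The ranges were -0.073 to 0.41 for VPS4B and -0.091 to 0.43 for SUV39H2. Among transcripts they were -0.76 to 1.11 (ENST00000263753), -0.41 to 1.36 (ENST00000417364), -0.65 to 0.63 (ENST00000383774), -0.62 to 0.67 (ENST00000421451) and -0.80 to 0.78 (ENST00000443724) for SGOL1, -0.071 to 0.44 for INCENP (ENST00000278849), and -0.0154 to 0.18 (ENST00000301633), -0.0075 to 0.66 (ENST00000374948) and -0.098 to 1.32 (ENST00000590449) for BIRC5. They were -0.50 to 0.52 for AURKB (ENST00000316199), -0.0123 to 0.25 (ENST00000357799) and -0.23 to 0.78 (ENST00000409203) for SGOL2, -0.30 to 0.039 for CDCA8 (ENST00000373055) and -0.35 to 0.64 for RCC2 (ENST00000375433). With a pseudocount of 0.1, with or without the block, ENST00000383774 SGOL1 was at 0.30 and ENST00000421451 SGOL1 at -0.0186, and with median-of-ratios scaling ENST00000383774 SGOL1 was at 0.0016.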
